A study of Mus musculus with 11 samples.

Results

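Cdkn1a encodes p21, an inhibitor of cyclin-dependent kinases, and is the textbook target of the tumour suppressor p53. It is described here with 9 other genes that p53 is known to activate (Ccng1, Mdm2, Bax, Trp53inp1, Perp, Sesn2, Phlda3, Pmaip1 and Plk3). The genes were chosen by symbol, because the Cdkn1a signal had been seen to be high at E13, and the question was whether other p53 targets were high there too. The stage difference of these 10 genes is therefore given as a description, with no test. Of the 10 genes, among 19057 genes with a probe of their own, 9 are paired with 21 of the 45281 probes. Bax has no paired probe in the annotation used here and was not analysed here. For 6 genes at least 1 probe was detected on all arrays, which gave 12 probes for comparison.

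Gene expression was measured on Illumina bead arrays, where a probe's signal is a fluorescence intensity with no absolute unit. The RNA came from IPs, the intermediate progenitors of the embryonic mouse cortex, which were isolated through their EGFP label by FACS from Tbr2 conditional knockout (Tbr2 mutant) embryos. There were 5 arrays at embryonic day 13 (E13) and 6 at embryonic day 16 (E16), and both stages carried the mutation, so each value compares stages within the mutant. IPs were marked by the Tbr2-EGFP reporter and the mutants carried the Tbr2 fl/fl allele. The study's methods give Emx1-Cre, which is active in the progenitors of the dorsal telencephalon, as the driver of its cortical Tbr2 knockout. The methods describe the arrays as biological replicates from 3 litters, but no label ties an array to a litter, and p-values would be too small if arrays shared one. Control arrays were not analysed here, so nothing below measures an effect of the mutation.

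p53 is a transcription factor that is kept low by the ubiquitin ligase MDM2 and is stabilized by DNA damage and other stress. It then binds pairs of short half-sites near its target genes. These targets halt the cell cycle, repair DNA, trigger apoptosis, alter metabolism and, through Mdm2, shut p53 off again. p21 is also induced without p53 in cells that leave the cell cycle, for example by TGF-beta signals, FOXO factors and KLF factors. High p21 leads, through the DREAM complex, to repression of cell cycle genes.

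Promoter windows are shown for 3 of the genes because each holds a p53 half-site while their signals behaved differently between the stages. Windows run from 250 bases before to 50 bases after the transcription start and come from RefSeq (build GRCm38.p6). Of the 10 genes 7 have a window (8 windows, since Cdkn1a has 2 starts), and Perp, Trp53inp1 and Pmaip1 have none in the table. Capitals mark a perfect p53 half-site or, in Ccng1, also the adjoining half-site with 1 mismatch. In Cdkn1a the 10 bases directly after the capitals nearer the start also fit with 1 mismatch, but they are left in lower case. The half-site pattern reads the same on both strands.
Cdkn1a (chr17:29090729-29091028, plus strand): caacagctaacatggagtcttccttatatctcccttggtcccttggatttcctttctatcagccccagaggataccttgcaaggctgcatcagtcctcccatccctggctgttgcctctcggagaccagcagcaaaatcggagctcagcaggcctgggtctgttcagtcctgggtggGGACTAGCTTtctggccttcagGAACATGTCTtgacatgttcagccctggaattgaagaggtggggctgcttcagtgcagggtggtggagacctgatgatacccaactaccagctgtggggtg
Ccng1 (chr11:40755237-40755536, minus strand): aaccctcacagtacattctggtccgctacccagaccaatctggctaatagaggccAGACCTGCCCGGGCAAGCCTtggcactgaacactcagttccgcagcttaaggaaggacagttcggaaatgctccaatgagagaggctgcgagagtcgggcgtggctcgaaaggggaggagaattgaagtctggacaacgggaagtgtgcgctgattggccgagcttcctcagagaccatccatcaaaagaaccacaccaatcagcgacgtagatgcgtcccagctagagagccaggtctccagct
Mdm2 (chr10:117710709-117711008, minus strand): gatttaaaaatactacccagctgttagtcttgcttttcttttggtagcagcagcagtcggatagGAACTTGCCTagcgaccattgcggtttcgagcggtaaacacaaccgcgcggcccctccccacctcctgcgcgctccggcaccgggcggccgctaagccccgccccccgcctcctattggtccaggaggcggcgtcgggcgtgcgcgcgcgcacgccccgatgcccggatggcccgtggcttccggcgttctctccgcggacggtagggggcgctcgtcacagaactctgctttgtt

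A half-site was found in 4 of the 8 windows, those of Cdkn1a (the upstream start), Ccng1, Mdm2 and Bax, against 8.36% of all 32851 windows in the table. The genes were chosen as p53 targets, so this share is not a result about them. In the upstream Cdkn1a window perfect half-sites begin 73 and 51 bases before the start and are separated by 12 bases, within the 13 that a complete site allows. A complete site with no mismatch was found in 24 of all windows (0.0731%), and one with at most 1 mismatch in 1.09%. Ccng1 and Bax hold a complete site with 1 mismatch, with spacers of 0 and 1 bases. The Mdm2 window holds 1 half-site alone, 186 bases before the start. The second Cdkn1a window and those of Plk3, Phlda3 and Sesn2 hold none, and no match says only that these letters are absent from the window.

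Cdkn1a was high in all E13 arrays and low in all E16 arrays. Its brightest probe (ILMN_2634083) had normalized signals of 1659, 1104, 1064, 1549 and 1567 on E13 arrays 37, 40, 61, 64 and 65. On E16 arrays 11, 15, 80, 91, 95 and 97 the signals were 142, 249, 88.0, 131, 113 and 179. Even the lowest E13 array lay 4.28-fold above the highest E16 array. The stage means were 1389 ± 282 (SD, n = 5, E13) and 150 ± 57.0 (SD, n = 6, E16), a log2 difference of -3.26 (standard error 0.23) or a 9.61-fold higher level at E13. This fall was the 6th largest among 16411 probes. With single arrays left out the log2 difference ran from -3.43 (without E16 array 15) to -3.12 (without E16 array 80).
The other Cdkn1a probes gave the same order. ILMN_2846775 lay between 320 and 484 at E13 and between 45.8 and 62.6 at E16, with a log2 difference of -2.89 (standard error 0.16), or 7.41-fold. ILMN_2846776 was detected on 5 of 5 E13 arrays, with signals before normalization of 111 to 265, but on only 3 of 6 E16 arrays, with signals of 0.868 to 27.7. It was therefore left out of the comparison. Over the 11 arrays the 2 probes that were compared correlated at 0.99, and at 0.841 after each stage's mean was removed, so that arrays high within a stage were largely high on both.

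Plk3, a polo-like kinase of the stress response, was the other gene whose stages did not overlap. Its normalized signal was 916, 397, 747, 776 and 679 on E13 arrays 37, 40, 61, 64 and 65, and 313, 263, 170, 295, 294 and 280 on E16 arrays 11, 15, 80, 91, 95 and 97. Array 40 was the lowest at E13 and array 80 the lowest at E16, and the gap between the stages was 1.27-fold. The means were 703 ± 191 (SD, n = 5) and 269 ± 51.2 (SD, n = 6), with a log2 difference of -1.36 (standard error 0.21), or 2.57-fold. Without E13 array 40 the log2 difference was -1.55. Plk3 has 1 probe, so no second probe bears on it.
Phlda3, which restrains the kinase Akt, lay between these genes and those that barely moved. Its brighter probe (ILMN_2923607) had signals of 194, 92.0, 124, 143 and 148 on the E13 arrays in the same order, and 69.4, 90.6, 52.99, 68.7, 115 and 78.1 on the E16 arrays. Only E16 array 95 lay above the lowest E13 array, array 40, so the stages overlapped by this pair of arrays. The log2 difference was -0.83 (standard error 0.22), or 1.77-fold. The dimmer probe (ILMN_2628567) lay between 38.8 and 110 at E13 and between 32.8 and 78.1 at E16, with a log2 difference of -0.49 (standard error 0.30). Its probes correlated at only 0.299 within stages, against 0.841 for Cdkn1a.

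The feedback genes of the pathway did not follow Cdkn1a. Mdm2 encodes the ligase that degrades p53 and is itself induced by p53. Its probe ILMN_2850753 had signals of 2632, 1968, 2383, 2789 and 2050 at E13 and of 2485, 2205, 2694, 2517, 2247 and 2182 at E16, which overlap almost fully. The log2 difference was 0.02 (standard error 0.10), and it was -0.04 (standard error 0.10) for ILMN_1250774, with 1742 to 2278 at E13 and 1636 to 2210 at E16. These 2 probes correlated at 0.006 over the arrays, so their spread holds little that they share. The third Mdm2 probe (ILMN_1229882) was detected on 4 of 5 E13 and 6 of 6 E16 arrays with signals before normalization of 11.6 to 34.8.
Ccng1, the cyclin G1 gene, whose product acts on MDM2, had signals of 352, 386, 335, 403 and 447 at E13 and of 301, 411, 346, 285, 326 and 375 at E16 on its brightest probe (ILMN_2500276). The stages overlapped, with a log2 difference of -0.18 (standard error 0.13). The dimmer probes ILMN_2702233 and ILMN_2710229 had log2 differences of -0.13 (standard error 0.21) and -0.40 (standard error 0.22), and overlapped too. On each of the dimmer probes the highest value of all lay on an E16 array, array 95 with 107 and array 97 with 156.

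Among the apoptosis genes only Phlda3 and Trp53inp1 were detected throughout. Trp53inp1, a nuclear protein gene that promotes p53-driven cell death, had signals of 1077, 1814, 1427, 1065 and 1344 at E13 and of 1353, 1499, 1298, 920, 1613 and 1368 at E16 (ILMN_2506012). The highest value of both stages lay on E13 array 40 and the lowest on E16 array 91. Its log2 differences were 0.00 (standard error 0.16) and 0.00 (standard error 0.20, ILMN_2971479), and its probes correlated at 0.853 within stages, so they saw the same rises and falls between arrays.
Perp, a membrane protein of desmosomes and of apoptosis, was detected on none of the 11 arrays by its single probe, with signals before normalization of -14.6 to 5.08. Pmaip1, the gene of the BH3-only protein NOXA, was detected on none by any of its 3 probes, with signals of at most 20.1. Sesn2 encodes sestrin 2, a brake on mTORC1. Its probe ILMN_2948945 was detected on 5 of 5 E13 arrays, with 59.1, 42.4, 38.6, 41.9 and 68.8, and on 4 of 6 E16 arrays, with 20.2, 41.3, 16.5, 8.82, 35.1 and 26.1. These are signals before normalization, and they overlap only through E16 array 15, which lay above E13 array 61. The median signal of the compared probes was 329 on array 15 and 266 on array 61. Whether the overlap remains after scaling was not tested. The other Sesn2 probes were detected on 0 and 1 of the 11 arrays. A probe that is not detected sets no level for its gene.

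Across the 6 genes compared, every E13 array lay above every E16 array for 2, Cdkn1a and Plk3, and the reverse held for 0. Among all 8967 genes compared, by their brightest probe, E13 lay wholly above E16 for 7.68% and E16 wholly above E13 for 6.36%. The members were chosen with this comparison known, so nothing is read from these counts. Within stages, where the choice was not made, the correlation with the brightest Cdkn1a probe was 0.477 for Plk3, 0.467 and 0.52 for the Phlda3 probes, 0.223 to 0.542 for the Ccng1 probes, 0.511 and -0.165 for the Mdm2 probes, and -0.141 and -0.065 for the Trp53inp1 probes. These are descriptions over 11 arrays that share RNA amounts and scaling, and the second Cdkn1a probe stood at 0.841 by the same measure.

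**Figure D1:**
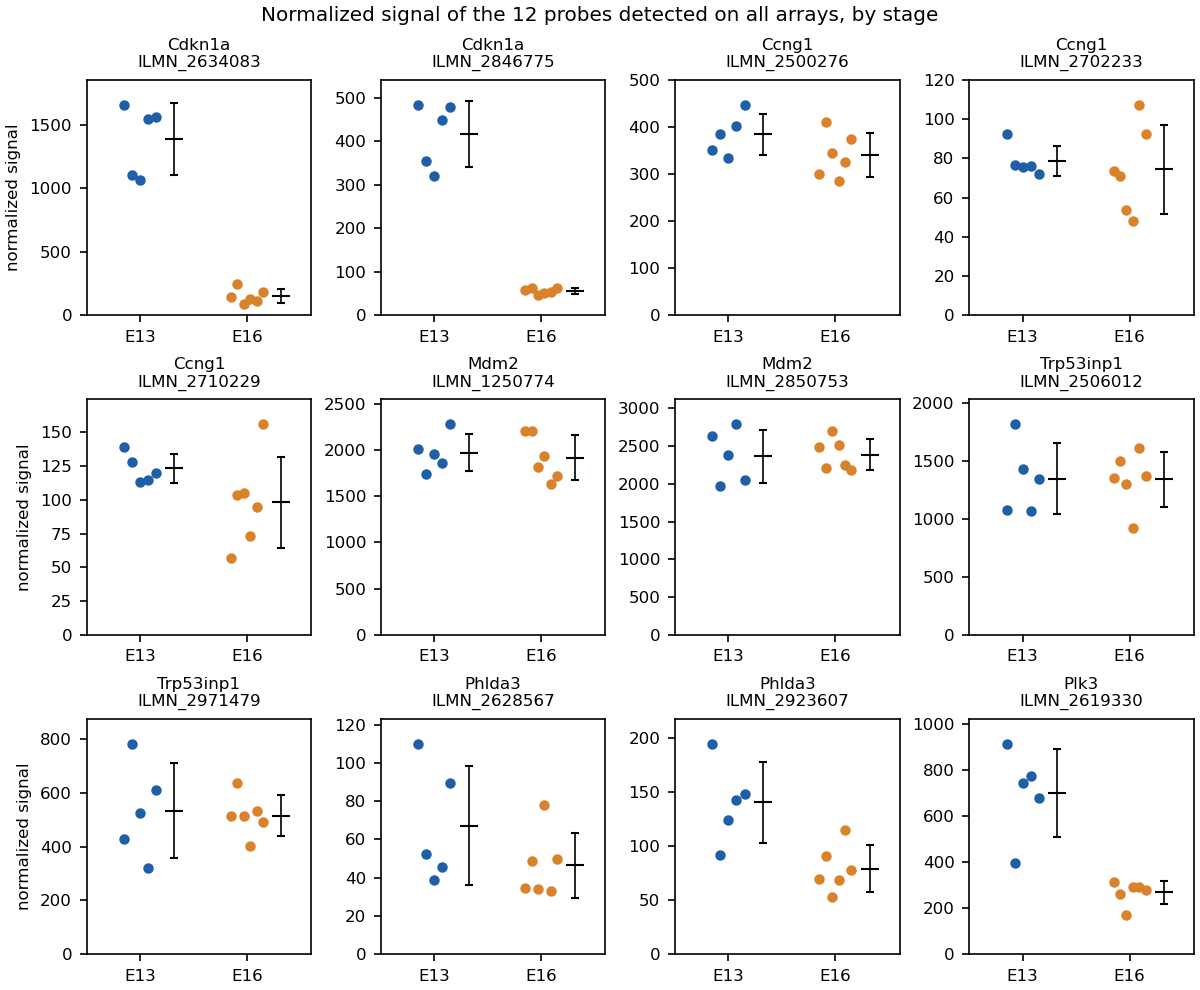
Normalized signal (vertical axes, from 0, each probe on its own scale) of the 12 compared probes at E13 (blue, 5 arrays) and E16 (orange, 6 arrays), with the mean and SD in black. The Cdkn1a probes and Plk3 show no overlap between the stages, while the Mdm2 and Trp53inp1 probes lie at the same height at both.

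Other p53 targets, taken from a wider list that leaves out the 10 genes above, were tested with limma across all 16411 probes, and a gene was called where the adjusted p was under 0.05 and the fold above 1.5. Of 69 listed genes 65 are on the array and 45 could be tested. At E16, 9 were lower (20%, against 6.98% of all 8967 genes tested) and 2 were higher (4.44%, against 5.27%), while 34 were not called. The median log2 difference was -0.15, against -0.00289 over all genes. With each array left out in turn the count of lower genes was 6 to 10. The stages did not overlap for 9 of the 45 genes, 6 with E13 above and 3 with E16 above, where 7.68% and 6.36% of all genes did so.
Among 6 arrest genes 3 were lower (50%, against 6.98% of all genes). Gtse1, a G2/M protein that itself restrains p53, averaged 694 ± 106 (SD, n = 5) on the E13 arrays and 188 ± 48.4 (SD, n = 6) on the E16 arrays, a log2 difference of -1.91 (standard error 0.18, adjusted p = 1.01e-05 from limma). Gadd45a, a DNA damage-inducible growth arrest gene, had 1303 ± 371 and 440 ± 92.1, with E13 arrays at 830 or more and E16 arrays at 546 or less. Its log2 difference was -1.55 (standard error 0.19, adjusted p = 9.45e-05 from limma). Ckap2, a spindle protein gene, was lower by -0.92 on the log2 scale (adjusted p = 0.00705 from limma). Plk2, a relative of Plk3, had a log2 difference of 0.11 and did not pass (adjusted p = 0.776 from limma), nor did Sesn1, a relative of Sesn2, at 0.52 (adjusted p = 0.11). Gtse1 and Ckap2 are also known as genes of the G2/M phase. Without them 7 of 43 genes were lower (16.3%), a count added after the values were seen.
Of 13 apoptosis genes 3 were lower (23.1%, against 6.98% of all genes). Pidd1, which encodes the scaffold of the PIDDosome, averaged 252 ± 54.7 (SD, n = 5) and 127 ± 36.8 (SD, n = 6) at the stages, a log2 difference of -1.01 (adjusted p = 0.00449 from limma). The death receptor gene Tnfrsf10b and the MAP kinase phosphatase gene Dusp4 had -0.86 and -0.66 (adjusted p = 0.0485 and 0.0287 from limma). Both calls were fragile, lost in 10 and 8 of 22 alternative settings. Bbc3, the gene of the BH3-only protein PUMA, had a mean of 394 at E13 and 462 at E16 and was not called (log2 difference 0.26, adjusted p = 0.299 from limma). Apaf1, Zmat3 and Siva1 passed the adjusted p but stayed under the fold threshold, with log2 differences of -0.32, -0.45 and -0.48.
Outside these roles the list was mixed. Of 7 repair genes 1 was lower and 1 higher (14.3% each, against 6.98% and 5.27% of all genes). Polk, a translesion polymerase gene, was lower (-0.69 on the log2 scale, adjusted p = 0.0354 from limma), which 13 of 22 alternative settings did not keep. Ddb2, the damage-recognition gene of nucleotide excision repair, was higher, rising from 222 ± 37.4 (SD, n = 5) to 358 ± 29.9 (SD, n = 6), a log2 difference of 0.71 (adjusted p = 0.0022 from limma). None of 10 metabolism genes was called, although Pank1, Gpx1 and Ddit4 passed the adjusted p. The matrix proteoglycan gene Vcan and the sulfatase gene Sulf2 were lower, with log2 differences of -1.69 and -1.57 (adjusted p = 0.000843 and 0.00048 from limma). The autophagy kinase gene Ulk1 was higher (0.63, adjusted p = 0.00323 from limma); its change fell below 1.5-fold with median scaling (0.58) and without E16 array 95 (0.56). None of the 3 feedback genes was called, with Ppm1d, a phosphatase that turns p53 off, at 0.14. Over all genes 6.98% were lower and 5.27% higher, so 0 calls set neither the 10 metabolism genes nor the 3 feedback genes apart. Of the 20 listed genes on the array that could not be tested, 10 were detected on no array, among them Btg2 and Fas.

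**Figure D2:**
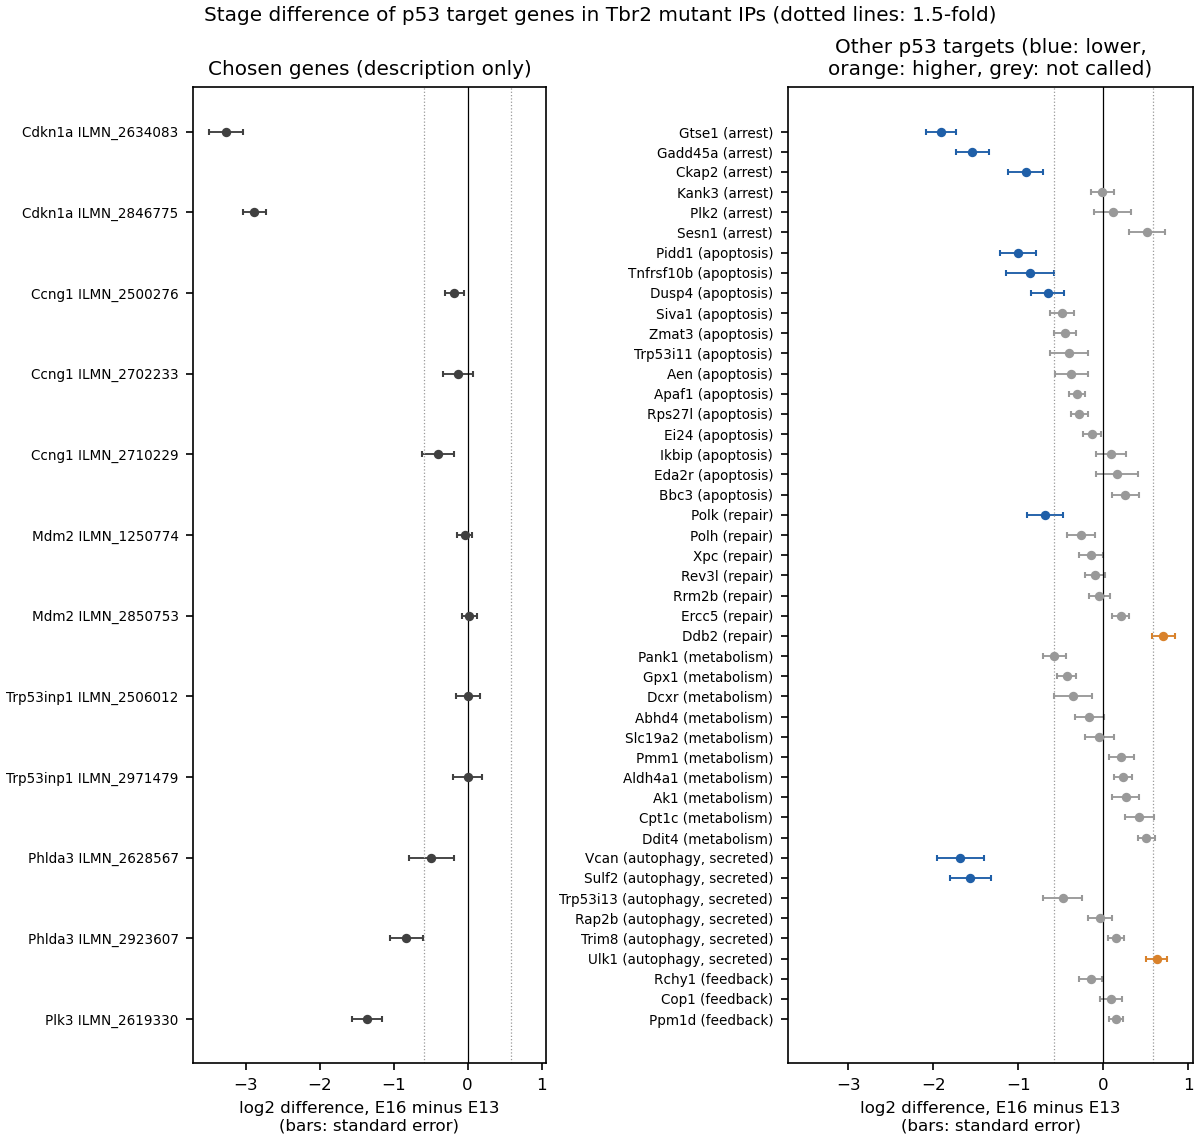
Log2 difference between E16 and E13 (horizontal axes, bars show the standard error, dotted lines mark 1.5-fold) for the 12 compared probes of the chosen genes (left) and the 45 other p53 targets by role (right). Blue points were called lower at E16 (9 genes) and orange ones higher (2 genes). Both Cdkn1a probes lie beyond every other p53 target shown. None of the 3 feedback and 10 metabolism genes on the right was called. With 6.98% of all genes lower and 5.27% higher, this does not set them apart.

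Of 23 tested regulators of p53, 1 was lower (4.35%, against 6.98% of all genes) and 0 were higher (against 5.27%), with a median log2 difference of 0.01 against -0.00289 over all genes. These shares are near the background. The lower one was Chek2, a kinase that activates p53 after DNA damage, which went from 77.6 ± 13.2 (SD, n = 5) to 41.2 ± 14.96 (SD, n = 6) (log2 difference -0.97, adjusted p = 0.0104 from limma). Mdm4, the inhibitory partner of Mdm2, had a log2 difference of 0.47 and did not pass (adjusted p = 0.073 from limma). Cdkn2a, which encodes the MDM2 inhibitor ARF, could not be tested because no probe of it was detected on all arrays. The p53 gene itself was not analysed here. Of 16 genes of the DNA double-strand break response 3 were lower (18.8%, against 6.98% of all genes), Fancd2, Rad54l and H2ax, with log2 differences of -1.15, -1.14 and -1.13 (adjusted p = 0.000475, 0.000663 and 0.000492 from limma). Most cell cycle genes given below were lower too, and whether Chek2 and these 3 genes fell with them was not tested.
Other stress programmes were mixed. The heat shock and immediate early lists had 0 calls among 6 and 11 genes tested, which with 6.98% lower and 5.27% higher over all genes sets neither list apart. Fos had the largest difference of the early genes, 1.36 (standard error 0.69, adjusted p = 0.196 from limma). Of 14 genes of the integrated stress response 3 were lower (21.4%, against 6.98% of all genes), Phgdh (-1.25), Chac1 (-1.08) and Psat1 (-0.84). Of 14 BCL2 family and caspase genes 0 were lower (against 6.98% of all genes) and 1 was higher (7.14%, against 5.27%). These shares do not set the list apart. The gene called was Bid, higher at 0.61 (adjusted p = 0.0322 from limma). In 12 of 22 alternative settings this call was not kept (adjusted p from 0.0259 to 0.0938).
Cdkn1a was not alone among CDK inhibitors. Of 4 others tested 2 were lower (50%, against 6.98% of all genes) and 0 were higher (against 5.27%). Cdkn1c, which encodes p57, fell from 6804 ± 860 (SD, n = 5) to 3228 ± 269 (SD, n = 6), a log2 difference of -1.07 (standard error 0.09, adjusted p = 6.67e-06 from limma). Cdkn2d, which encodes p19, fell by 0.68 on the log2 scale (adjusted p = 0.0046 from limma). Cdkn1b, which encodes p27, and Cdkn2c had 0.13 and -0.48 and did not pass (adjusted p = 0.737 and 0.083 from limma). Of 14 tested genes from a list of possible p53-independent regulators of Cdkn1a, Tfap2c and E2f3 were lower, 14.3% against 6.98% of all genes (-0.99 and -0.97, adjusted p = 0.0014 and 0.00164 from limma). Whether either raises or lowers Cdkn1a in these cells was not tested. None of the 4 SMAD pathway genes among them was called, which with 6.98% lower and 5.27% higher over all genes does not set them apart.
Cell cycle genes that p21 represses through DREAM were lower at E16, where Cdkn1a was lower as well. Of 32 tested, 24 were lower and 0 higher (75.0% and 0%, against 6.98% and 5.27% of all genes), with a median log2 difference of -1.01. They comprised 16 of 17 G2/M genes and 8 of 15 G1/S genes. Birc5, Nusap1, Aurkb and Prc1 had the largest falls, with log2 differences of -1.65, -1.65, -1.61 and -1.61. Birc5, the gene of survivin, went from 1626 ± 211 (SD, n = 5) to 524 ± 121 (SD, n = 6).

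**Figure D3:**
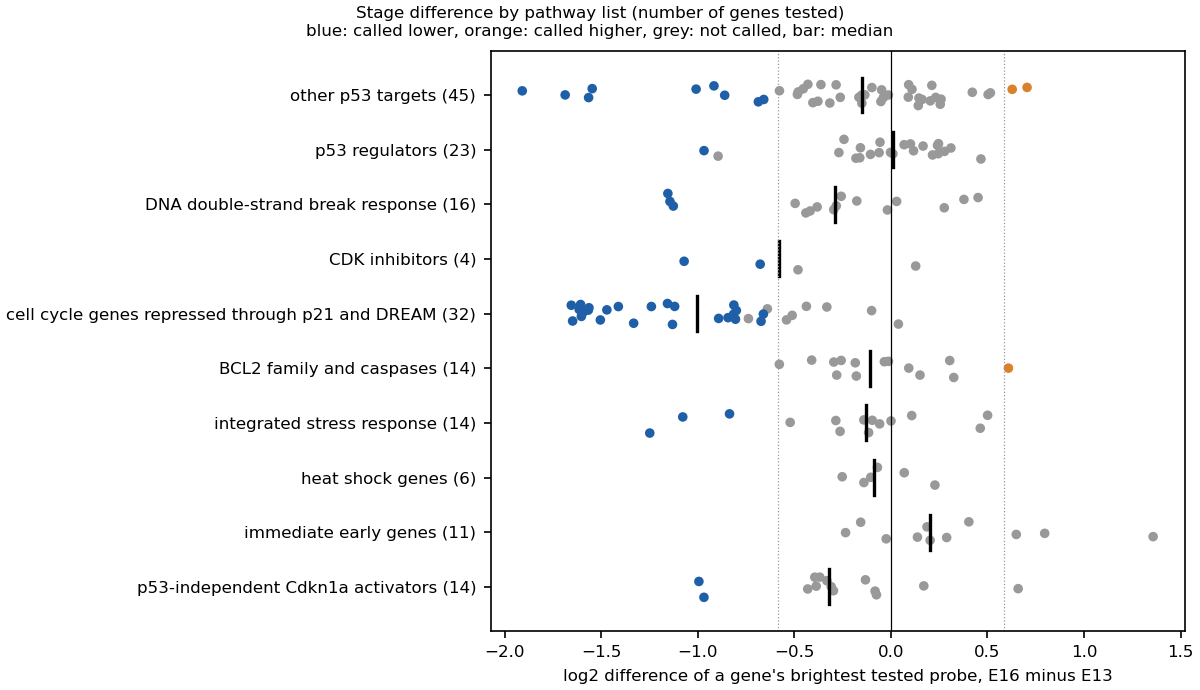
Log2 difference between E16 and E13 (horizontal axis) of each tested gene in 10 pathway lists (rows, number tested in brackets), with the median as a black bar. Cell cycle genes lie furthest left (median -1.01), and the p53 regulators centre on 0.01.

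The genes whose signals were most like that of Cdkn1a over the 11 arrays were found by correlation on the log2 scale. The highest correlations were those of Cdkn3 (0.988), Chst8 (0.988), Cenpp (0.987), Cadps2 (0.984), Plk4 (0.984) and Ska3 (0.982). Cdkn3 is a phosphatase of CDKs, Plk4 starts centriole duplication, and Cenpp and Ska3 act at the kinetochore. Both stages enter this measure, so it mostly orders genes by how cleanly they fell, and 275 of 8966 genes exceeded 0.9. Gtse1 (0.973) and Gadd45a (0.951) came closest among p53 targets, ranking 25th and 86th, and Plk3 (0.915) ranked 216th. Ccng1, Trp53inp1 and Mdm2 stood at 0.575, -0.04 and -0.111 by their brightest probes. The other compared Mdm2 probe (ILMN_1250774) stood at 0.253. Without arrays 40 and 80 Cdkn3 ranked 9th with 0.986.
Within stages the order differed. The highest correlations of deviations from the stage means were those of Wdr76 (0.894), Elavl1 (0.872), Man2b1 (0.867), Uhrf1 (0.865), Fam111a (0.865) and Slc8b1 (0.86). Uhrf1 maintains DNA methylation in S phase, and Man2b1, a lysosomal mannosidase gene, was itself 0.18 higher at E16 on the log2 scale. Among p53 targets named above, Gadd45a ranked 211th by this measure, Gtse1 218th, Vcan 245th, Zmat3 273rd and Pank1 282nd. Ccng1 ranked 412th, Phlda3 489th, Sulf2 612th and Plk3 622nd. Trp53inp1 ranked 5724th and Mdm2 (ILMN_2850753) 6001st.

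Summed marker signals separated the stages for Cajal-Retzius and hem cells and for radial glia. Those of intermediate progenitors and of neurons overlapped between the stages. In a bulk sample fewer cells of a type and less RNA per cell cannot be told apart. Of the intermediate progenitor markers 9 of 10 were detected on all arrays, with a summed signal, scaled to each array's median, of 35966 to 43322 at E13 and 17903 to 36260 at E16, lowest on array 80; Gadd45g and Insm1 were brightest. Of 12 neuron markers 11 were detected on all arrays (46185 to 66132 and 40603 to 63251). Of 12 markers of Cajal-Retzius cells and the cortical hem 5 were detected on all arrays and Nhlh2 on none. Their sum was 11070 to 27184 at E13 and 2821 to 9232 at E16. It was lowest within each stage on arrays 40 and 80, where Plk3 was also lowest. The brightest Cdkn1a probe was lowest at E16 on array 80 (88.0) too. At E13 that probe was lowest on array 61 (1064), where the Cajal-Retzius and hem sum was 25512.5. Ebf3 and Reln were brightest, and Ebf3 weighed most in the sum, with a scaled mean of 12891 at E13 against 4774 for Reln. Of the 5 tested, Reln, Lhx1 and Ebf2 were lower at E16, while Ebf3 and Calb2 were not called. Ebf3 had a log2 difference of -1.50 (adjusted p = 0.124 from limma), and its stages overlapped. Radial glia markers, 7 of 11 detected on all arrays with Vim and Gli3 brightest at E13, summed to 4006 to 6278 at E13 and 2215 to 3243 at E16, but their members did not move one way. Of the 7 tested, Vim, Gli3 and Nes were lower at E16 (log2 differences of -1.77, -0.82 and -0.71), while Slc1a3, a glutamate transporter gene, was higher (1.58, adjusted p = 0.00315 from limma). The part of these cells in the Cdkn1a, Plk3 and p53 target differences was not tested.
E13 array 64 stood apart in 5 marker lists. Its erythroid sum was 26138, where the other E13 arrays had 217 to 502 and the E16 arrays 677 to 7641, and Hba-a1 and Hbb-y were brightest. It also stood above the other E13 arrays in the sums of endothelial (637), microglial (203), meningeal (595) and interneuron (4157) markers. Its radial glia sum (6278) was close to that of E13 array 37 (5741). Without it the log2 difference of Cdkn1a was -3.23 and that of Plk3 was -1.31, and 7 other p53 targets were lower. Without arrays 40 and 80 together the values were -3.19, -1.42 and 8. The arrays had 19757 to 20854 detected probes, and arrays of one stage correlated at 0.954 to 0.985 against 0.931 to 0.969 between stages.

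**Figure D4:**
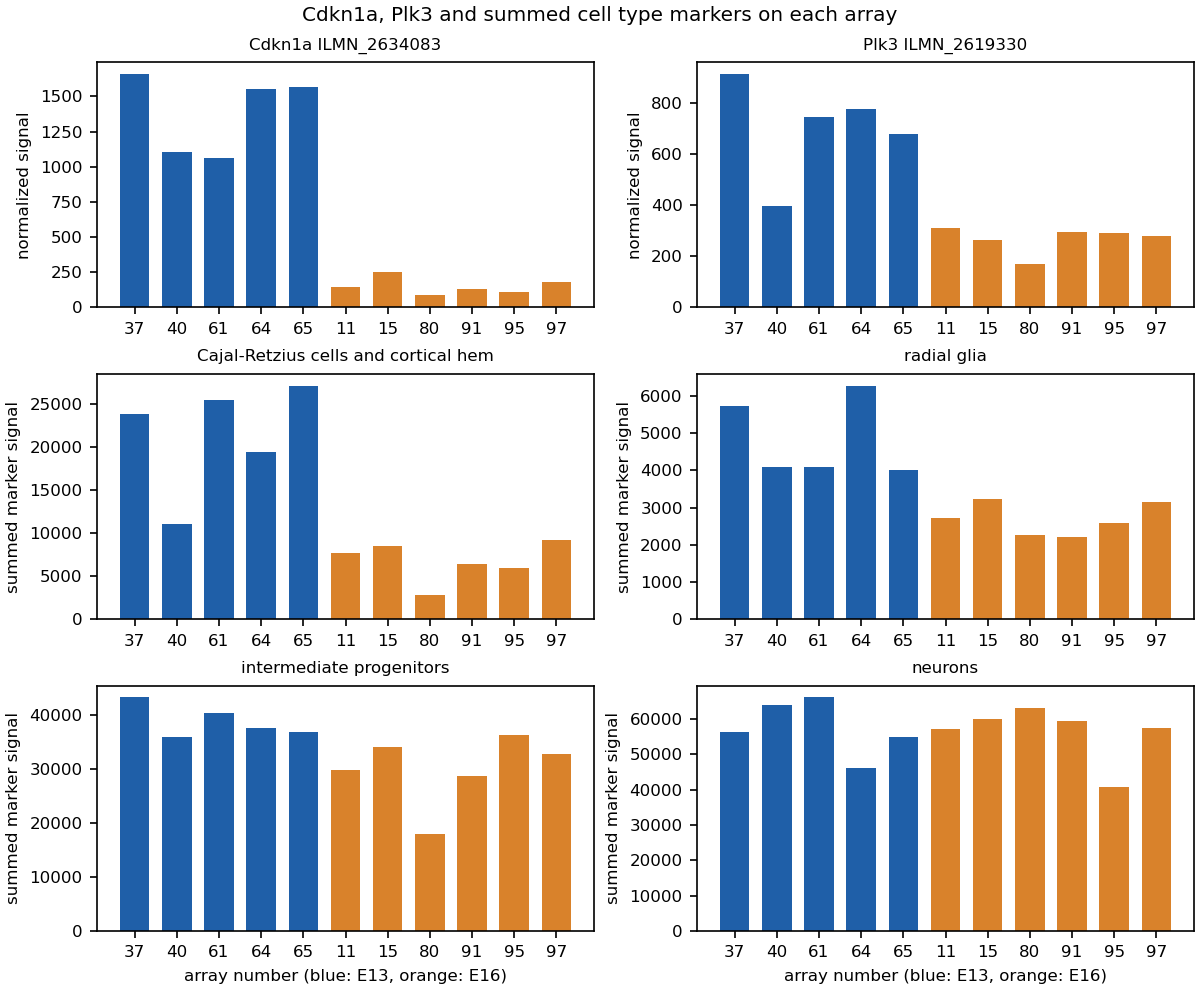
Normalized signal of Cdkn1a and Plk3 (upper row) and summed signal of 4 marker lists, scaled to each array's median (lower rows), on each array (E13 blue, E16 orange; vertical axes from 0). Cdkn1a, Plk3, the Cajal-Retzius and hem sum and the radial glia sum are all higher on each E13 array than on each E16 array, although 1 radial glia marker, Slc1a3, was called higher at E16.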

How the data were processed

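The authors deposited background-subtracted signal intensity values, not yet normalized between arrays, and beside each a detection p-value. Their second deposited file holds quantile-normalized log2 values of 15825 probes, from which outlier probes had been removed, and it served as an alternative only. A further 22 columns of per-sample values, from control arrays, match no sample and were not used. Probes were named through the platform annotation (34885 of 45281 with 1 gene symbol, 18 with several, 10378 with none). The 16411 probes whose detection p was under 0.05 on each of the 11 arrays were kept. Their signals were quantile-normalized and log2-transformed, and limma (version 3.58.1, R version 4.3.3) compared the stages, with stage as the only term, a mean-variance trend and Benjamini-Hochberg adjustment over all probes. Tables were read with the data.table package, version 1.17.8. A gene was represented by its brightest tested probe. The fit was tested on simulated data.

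The members and all lists were chosen with earlier results of these data known. Named were all probes of the chosen genes, Mdm4 and Cdkn2a, for each list and direction the called genes with the largest differences (at most 4) or up to 2 of the largest differences where none was called, the 6 genes most like Cdkn1a by each measure, and the 2 brightest genes of marker lists; others were named after their values were seen. Of 371 list entries, 271 in 10 pathway lists and 100 in 9 marker lists, 26 pathway and marker entries have no paired probe. Alternatives were median scaling, neqc, other detection filters (a floor of 16 where needed), the authors' table, an unmoderated test, no fold threshold, array weights, a replicate block, mean probes and leaving out arrays. The number of arrays limits precision, and p-values measure only the spread between them. Promoter windows were read with Python 3.11.15.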

Additional observations from a re-analysis of the deposited data

Results flagged for a closer look

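Within a stage, an array was marked where its gap to the nearest array took an unusually large share of the range (Dixon's test at the 95% level). This held in 3 of 46 groups checked, where chance marks about 1 in 20 groups, or 2.3 here. Plk3 had a normalized signal of 170 on E16 array 80, below the other E16 arrays at 263 to 313. The Ccng1 probe ILMN_2702233 had 92.3 on E13 array 37, above the other E13 arrays at 72.2 to 76.7. The Ulk1 probe ILMN_1228475 had 1489 on E13 array 40, above the other E13 arrays at 1181 to 1244.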

How the results depend on the processing

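Over the alternatives the brightest Cdkn1a probe kept a log2 difference between -3.43 and -3.12, and no named call reversed. Of 136 alternative counts 120 stayed within 1.5 times the value reported. With no fold threshold 1544 probes were lower and 1399 higher at E16, 14 other p53 targets were lower and 6 genes of the other pathway lists were higher. Other p53 targets called higher numbered 1 with median scaling, and 1 to 3 with single arrays left out, the 1 without E16 array 95. The single higher gene of the other pathway lists was lost (0 called) with neqc, no detection filter, the unmoderated test, the replicate block and without arrays 40 and 80 together. With single arrays left out that count ran from 0 (without E13 arrays 37, 64 or 65 or E16 array 80) to 2 (without E16 array 11). The cause was not tested. Replicate numbers of both stages share only a number: deviations of same-numbered samples correlated at -0.25 to 0.171 over 5 pairs, and 1 of 5 correlated best with its own number. With the replicate block, on the authors' table, 823 probes were lower and 683 higher, and Cdkn1a had a log2 difference of -3.34. Calls that leaving out 1 array ended included those of Tnfrsf10b (any of E13 arrays 37, 40, 61 and 65 and E16 arrays 11, 91, 95 and 97), Dusp4 (E13 arrays 37, 61, 64 and 65, E16 arrays 80 and 91), Polk (any E13 array, E16 arrays 11, 91 and 95), Bid (E13 arrays 37, 64 and 65, E16 arrays 80, 91 and 97), Psat1 (E13 arrays 37, 61 and 64) and Ulk1 (E16 array 95). The adjusted p from limma over all settings ran up to 0.211 for Tnfrsf10b, 0.161 for Dusp4, 0.137 for Polk, 0.0938 for Bid, 0.128 for Psat1 and 0.0309 for Ulk1. Among cell cycle genes Ccne1, Cdt1 and Cdc6 lost their call in 10 of 19, 4 of 22 and 2 of 22 settings, Cdt1 and Cdc6 without E13 array 37, and Ccne1 without any of E13 arrays 37, 40, 64 and 65 and E16 arrays 15, 91 and 97. Probes near background, such as those of Perp, Pmaip1 and Sesn2, set no level.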
